A study of Mus musculus with 6 samples.

Results

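The nectin-like molecules Cadm1 to Cadm4 and the nectins Nectin1 to Nectin3 were followed in sciatic nerves of mice that lack Sip1, now called Zeb2, in Schwann cells. The genes were chosen by name, and older symbols such as Pvrl1 were accepted. Of the 7 genes, 6 were found among 20239 named genes on the arrays, each with 1 probe set, namely 3 CADM genes and 3 nectin genes, and all 6 were tested. Cadm2 was not analysed here.

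The 3 mutant mice had the genotype DhhCre::Sip1 flox/flox, and the 3 control mice were Sip1 flox/flox without Cre, so both groups carried the floxed alleles. All mice were 25 days old, and each array of whole sciatic nerve is taken here as 1 mouse. The Cre recombinase is driven by regulatory sequences of Desert hedgehog, a gene of the Schwann cell lineage, and no control with Cre alone is among the samples. Zeb2 is a zinc finger transcription factor of Schwann cells. Whole nerves also hold fibroblasts, perineurial cells, vessels, fat and muscle remnants.

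CADM proteins and nectins are cell surface adhesion molecules of the immunoglobulin superfamily, which bind each other across the gap between cells. Along the myelinated internode, Cadm4 lies on the Schwann cell membrane and binds Cadm3 and Cadm1, which are best known from the axon. Inside the cell, CADM proteins bind scaffold proteins of the membrane skeleton. Nectins bind afadin, which links them to actin and to cadherin junctions.

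Cadm3 and Cadm4 were both much lower in mutant nerves, by 6.49-fold and 4.78-fold, while Cadm1 and the 3 nectins did not pass the test. Thus 2 of 6 genes passed, both as lower, beside 9.62% of all genes that passed in either direction and 3.89% as lower, against 5.74% as higher (limma, Benjamini-Hochberg adjusted p under 0.05 over all genes). The median log2 fold change was −2.26 over the CADM genes, 0.09 over the nectins and −0.02 over all genes. A log2 fold change is the mean of mutant values minus the mean of control values, all on the log2 scale of the deposited table. The 2 groups did not overlap for Cadm3, Cadm4 and Nectin3, which is 3 of 6 genes beside 28.1% of all genes.

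**Figure D1:**
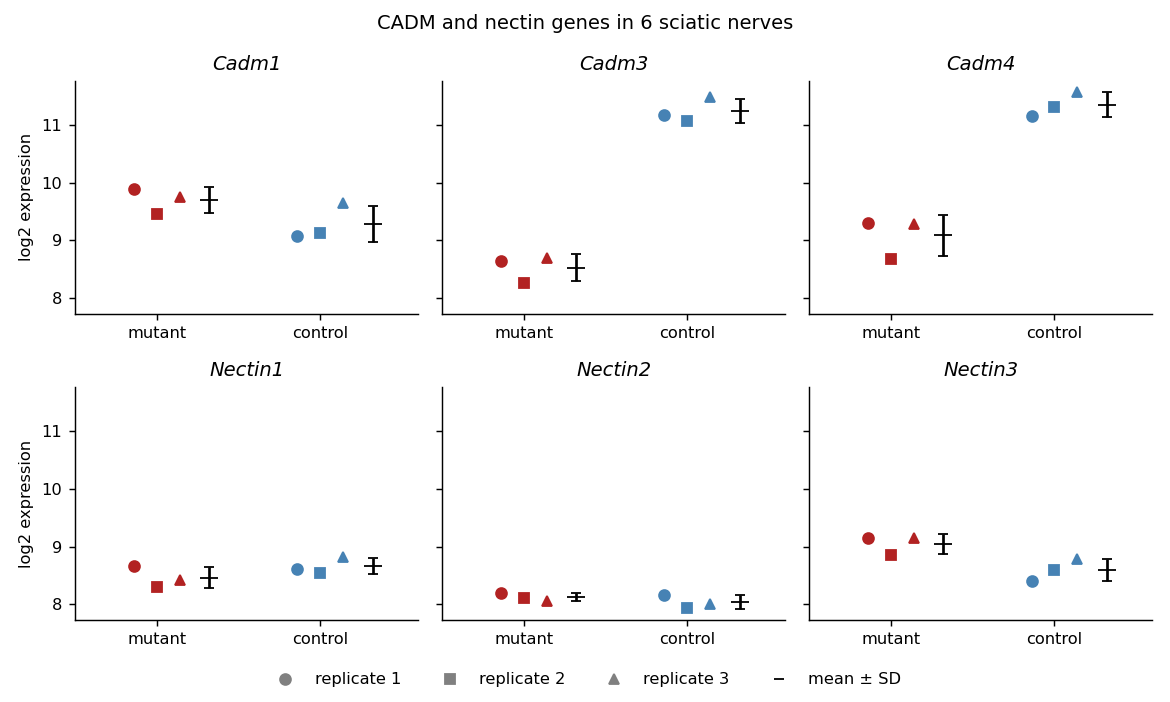
Log2 expression (vertical axis) of the 6 measured CADM and nectin genes in each nerve, with mutants in red and controls in blue; symbols mark the replicate number and black bars the mean ± SD of 3 mice. Cadm3 and Cadm4 lie between 8.26 and 9.30 in mutants, against 11.07 to 11.57 in controls, while the other genes lie close together in both groups.

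Zeb2 itself, the floxed gene, gave 10.96, 10.66 and 11.01 in the mutants, against 11.67, 11.57 and 12.02 in the controls. The groups did not overlap, with a log2 fold change of −0.88 (SE 0.15, limma adjusted p = 0.0137). Without mutant 1 the adjusted p was 0.0522. Neither the floxed exons nor the probe positions are known here, and other cells of the nerve keep the gene, so the value is no measure of recombination.

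The axonal partner of Cadm4 in the internode is Cadm3, and its transcript had the larger change. It measured 8.64, 8.26 and 8.69 in mutants 1 to 3, against 11.16, 11.07 and 11.47 in controls 1 to 3. The highest mutant lay 2.37 below the lowest control, a gap far wider than the spread within either group. The group means were 8.53 ± 0.24 in mutants and 11.23 ± 0.21 in controls (SD, n = 3 each). This was a log2 fold change of −2.70 (SE 0.16, 95% confidence interval −3.07 to −2.33, limma adjusted p = 0.000325), or 15.4% of the control level. Only 0.188% of all genes had a lower fold change. A nerve holds axons but not the cell bodies of the neurons, which sit in ganglia and spinal cord. The mean of 11 measured neuronal and axonal markers was 7.61 to 7.89 in mutants and 7.81 to 8.11 in controls. Of these markers 1 passed as lower and 0 as higher, beside 3.89% and 5.74% of all genes. For 3 of the 11 the groups did not overlap, beside 28.1% of all genes. Map1b, the brightest, was 10.50 to 11.02 in mutants and 11.13 to 11.63 in controls. Uchl1, the next, was 8.30 to 8.86 in mutants and 9.34 to 9.88 in controls. The part of axonal transcripts in the Cadm3 value was not tested.

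Cadm4, the CADM protein of the myelinating Schwann cell surface, measured 9.30, 8.68 and 9.28 in mutants 1 to 3, against 11.15, 11.31 and 11.57 in controls 1 to 3. Mutant 2 was the lowest sample, and every mutant lay at least 1.85 below every control. The means were 9.09 ± 0.35 in mutants and 11.35 ± 0.21 in controls (SD, n = 3 each). Its log2 fold change was −2.26 (SE 0.20, 95% interval from −2.72 to −1.79, limma adjusted p = 0.00117), which leaves 20.9% of the control level. A lower fold change was found for 0.341% of all genes. In these whole nerves, fewer cells that make a transcript and less transcript per cell cannot be told apart.

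Because Cadm3 and Cadm4 fell together, the bases before their transcription starts are shown, taken from RefSeq on assembly GRCm38.p6. Each window holds the 250 bases before the annotated start, 5′ to 3′ on the gene's own strand, at chr1:173367696-173367945 (minus strand) for Cadm3 and chr7:24481773-24482022 (plus strand) for Cadm4. Capitals mark CACCT, the core of the motif that ZEB proteins bind, or its reverse complement AGGTG.
Cadm3: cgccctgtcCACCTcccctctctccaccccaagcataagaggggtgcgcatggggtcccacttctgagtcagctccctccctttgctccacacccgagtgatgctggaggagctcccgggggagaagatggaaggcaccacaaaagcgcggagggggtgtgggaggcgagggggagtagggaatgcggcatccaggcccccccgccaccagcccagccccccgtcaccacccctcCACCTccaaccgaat
Cadm4: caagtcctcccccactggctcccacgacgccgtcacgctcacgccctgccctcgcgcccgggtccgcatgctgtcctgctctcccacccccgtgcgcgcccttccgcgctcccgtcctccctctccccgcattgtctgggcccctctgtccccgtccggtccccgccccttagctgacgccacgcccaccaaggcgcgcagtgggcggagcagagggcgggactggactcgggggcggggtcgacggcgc
Cadm4 start site: cgggAGGTGcAGGTGccggg

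The last line spans chr7:24482022-24482041 on the plus strand, which is the final base before the Cadm4 start and the bases after it. Searched on both strands in the whole 300-base window, which adds 50 bases after the start, CACCT occurred 2 times for Cadm3 and 2 times for Cadm4. The Cadm3 matches began 241 and 15 bases before the start, and those of Cadm4 at bases 4 and 10 after it. At least 2 matches were found in 18.2% of the 32851 promoter windows in the table, and at least 1 in 51.9%. The longer form CACCTG, which contains CACCT, was found 1 time for Cadm4 and 0 times for Cadm3, against 1 time for Nectin2 and 0 times for Nectin3, and 20.2% of windows held it. The SOX core ACAANG was found 1 time for Cadm4, 0 times for Cadm3 and at least once in 41.2% of windows. Windows were at hand for 4 of the measured genes, and the other 2, Nectin2 and Nectin3, held CACCT 1 and 0 times. The share of G and C before the start was 66.8% for Cadm3 and 75.2% for Cadm4, against 62% for Nectin2, 73.2% for Nectin3 and a median of 52.4% over all windows, so it did not set the genes that fell apart. Such matches are letters in a window, and nothing about binding was measured.

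Cadm1, a widely expressed adhesion molecule that also pairs with Cadm4, had values of 9.88, 9.45 and 9.75 in mutants 1 to 3. The controls measured 9.07, 9.13 and 9.64. The groups overlapped, since control 3 lay above mutant 2. Mutants minus controls gave 0.41 (SE 0.18, 95% confidence interval −0.02 to 0.85, limma adjusted p = 0.246), so the interval reached from no change to a 1.80-fold higher level. Leaving out control 3 gave 0.59 (adjusted p = 0.0638), and leaving out mutant 1 gave 0.32. Of 19 processing alternatives, 1 took the value past the test, namely weights for array quality, at 0.58 (adjusted p = 0.0335). Those weights leaned on mutant 1, the array with the highest Cadm1, at 4.81. The weights were 0.46 and 1.52 for mutants 2 and 3, and 0.47, 1.17 and 0.55 for controls 1 to 3.

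**Figure D2:**
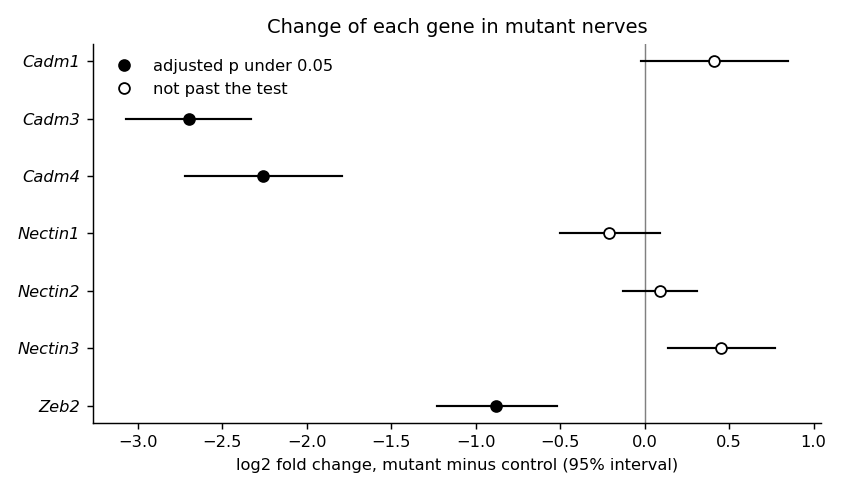
Log2 fold change (horizontal axis, mutant minus control) of the 6 genes and of Zeb2, with 95% confidence intervals from limma; filled points passed at an adjusted p under 0.05. The intervals of Cadm3 and Cadm4 end at −2.33 and −1.79, and those of Cadm1, Nectin1 and Nectin2 include 0.

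Nectin3, which binds Nectin1 and Nectin2 on the opposite cell, came closest to the threshold among the nectins. It measured 9.15, 8.85 and 9.14 in mutants, against 8.40, 8.59 and 8.78 in controls. All mutants lay above all controls, but by only 0.07 at the nearest point. The log2 fold change was 0.45 (SE 0.13, 95% confidence interval 0.14 to 0.77), and its limma adjusted p = 0.0898 missed the threshold (unadjusted p = 0.0116). It passed with array weights (0.53, adjusted p = 0.012) and with the adipocyte score as a covariate (0.41, adjusted p = 0.0369), and in none of the other alternatives.

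Nectin1, a partner of Nectin3 in junctions between unlike cells, measured 8.66, 8.30 and 8.42 in mutants, against 8.62, 8.55 and 8.82 in controls. The groups overlapped, with mutant 1 above 2 of the controls. Its log2 fold change was −0.21 (SE 0.12, 95% interval from −0.50 to 0.09, limma adjusted p = 0.401). Nectin2, found on many epithelial and endothelial cells, measured 8.20, 8.11 and 8.06 in mutants, against 8.17, 7.94 and 8.00 in controls. These values also overlapped, and the log2 fold change was 0.09 (SE 0.09, 95% interval from −0.13 to 0.31, limma adjusted p = 0.643). The intervals left out falls of more than 1.41-fold for Nectin1 and rises of more than 1.24-fold for Nectin2. In order of fold change, from lowest to highest, the 6 genes were Cadm3, Cadm4, Nectin1, Nectin2, Cadm1 and Nectin3. Neighbours in this order had overlapping intervals, except Cadm4 and Nectin1.

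Within a group the genes tended to be high or low in the same mouse. Mutant 2 had the lowest mutant value of Cadm1, Cadm3, Cadm4, Nectin1 and Nectin3, and control 3 had the highest control value of the same 5 genes. Mutant 2 was also rich in skeletal muscle transcripts, with a mean of 12.04 over 18 markers, against 7.60 and 9.77 in mutants 1 and 3. Among the controls, control 2 was the muscle-rich nerve, at 12.06 against 7.62 and 10.35 in controls 1 and 3. Control 3 had the lowest adipocyte mean of all nerves, 10.57, in a range that reached 11.72 in mutants and 12.49 in controls. Without the muscle-rich pair the log2 fold change of Cadm3 was −2.65 (limma adjusted p = 0.00329) and that of Cadm4 −2.07 (adjusted p = 0.00749). With the muscle score as a covariate their values were −2.71 and −2.27, and with the adipocyte score −2.75 and −2.32. Xist and Y-linked genes marked 2 of 3 mutants and 1 of 3 controls as male, and with sex as a covariate the values were −2.72 and −2.27. Between mice of the same replicate number, Cadm3 differed by −2.51, −2.81 and −2.78 and Cadm4 by −1.85, −2.63 and −2.29.

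**Figure D3:**
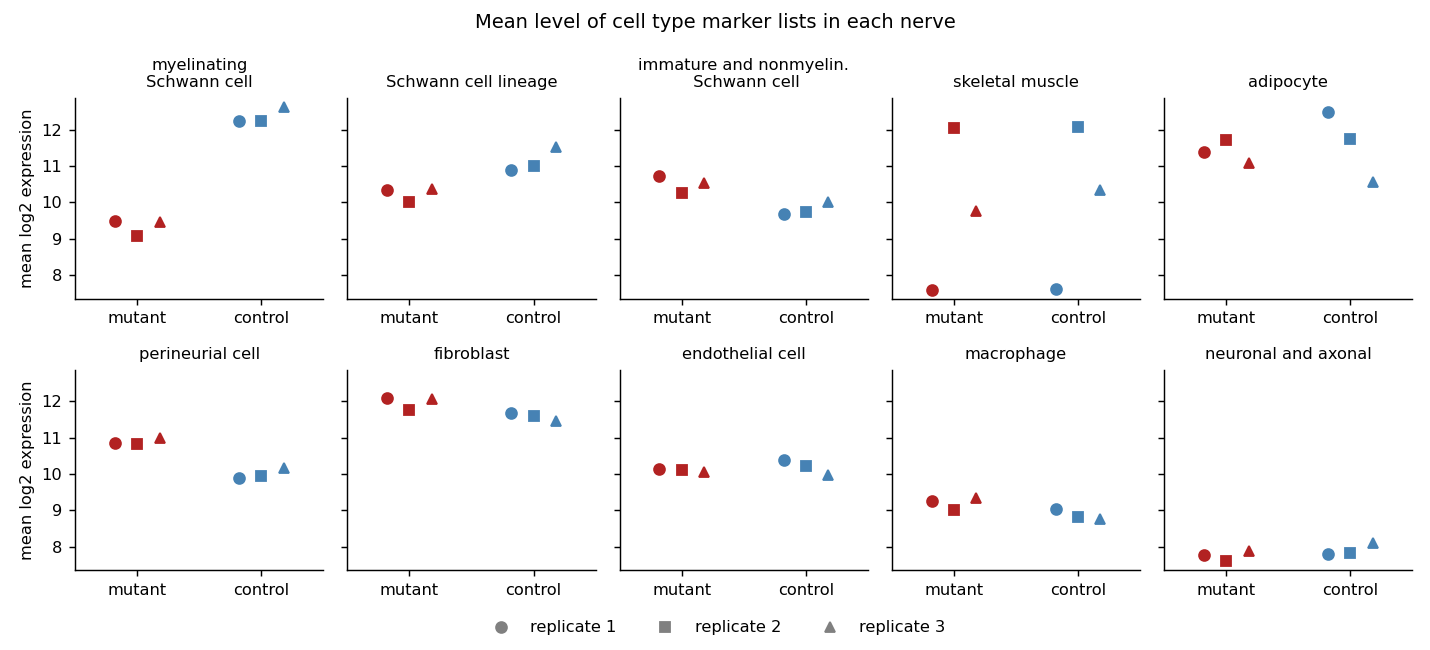
Mean log2 expression (vertical axis) of the measured members of 10 cell type marker lists in each nerve, with mutants in red and controls in blue; symbols mark the replicate number. The myelinating Schwann cell mean is 9.07 to 9.49 in mutants and 12.24 to 12.62 in controls, and the muscle mean differs more between nerves of a group than between groups.

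The brightest Schwann cell markers were high in both groups, but their levels differed. Mag, also a myelin marker, was 6.95 to 7.26 in mutants. Myelin markers measured here fell in 9 of 9 cases, beside 3.89% of all genes. Their log2 fold changes ran from −6.58 to −0.60, with a median of −2.22. The 2 brightest of them, Pmp22 and Mbp, were 13.67 to 13.96 and 11.18 to 11.56 in mutants, against 14.37 to 14.52 and 12.68 to 12.90 in controls. Markers of the Schwann cell lineage as a whole had a median of −0.94, with 3 of 6 lower and none higher, and their mean level was 10.02 to 10.38 in mutants and 10.90 to 11.53 in controls. Of 7 markers of immature and nonmyelinating Schwann cells 4 rose and 2 fell, with a median of 1.23. Perineurial markers rose in 7 of 10 cases and fibroblast markers in 4 of 10, beside 5.74% of all genes, and none of either list fell. Perineurial means were 10.83 to 10.99 in mutants and 9.89 to 10.16 in controls, and fibroblast means were 11.76 to 12.09 in mutants and 11.46 to 11.67 in controls. By limma none of 10 macrophage, 8 mast cell, 18 muscle or 12 adipocyte markers passed, while 5 of the macrophage markers and 0 of the others had an unadjusted p under 0.05. Of 10 endothelial markers 1 fell, and of 6 epithelial markers 1 fell, namely Cdh1, beside 3.89% of all genes. A single call shows nothing about either cell type. By limma, 4 of the endothelial markers and 1 of the epithelial markers had an unadjusted p under 0.05. The part of these cells in the CADM and nectin values was not tested.

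By the course of their values over the 6 arrays, Cadm4 was most like 3 genes that also fell. Likeness was measured as the root mean square difference between log2 values after each gene's mean was subtracted. Cldn19, a claudin of the myelin sheath, differed from Cadm4 by 0.06, Sema5a, a semaphorin, by 0.09, and Cnp, an enzyme of myelinating glia, by 0.10. Their log2 fold changes were −2.22, −2.34 and −2.28. The 3 genes most like Cadm3 were Tlcd3a at 0.08, Mboat1, a lysophospholipid acyltransferase, at 0.12 and Gas2l3, a cytoskeletal linker, at 0.12. They changed by −2.64, −2.55 and −2.50. Cadm4 stood in place 22 of 20238 genes by likeness to Cadm3, with a difference of 0.24, and Cadm3 in place 39 by likeness to Cadm4. Since the measure takes in the difference between the groups, genes with a fold change near these values come out as alike.

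Scaffold proteins that bind the inner end of CADM proteins showed changes in both directions. Of 12 measured partners 3 rose, 1 fell and 8 did not pass, beside 5.74% of all genes higher and 3.89% lower. The median was 0.21 against −0.02 over all genes. The one that fell was Epb41l2, a membrane skeleton protein of Schwann cells and an adaptor of Cadm4. It measured 11.56, 11.43 and 11.61 in mutants, against 12.25, 12.08 and 12.49 in controls, without overlap (log2 fold change −0.75, SE 0.12, limma adjusted p = 0.0116). Without mutant 1 its adjusted p was 0.0545. The membrane-associated scaffold Pals2, listed here as Mpp6 and also a partner of Cadm4 in Schwann cells, measured 9.36, 9.74 and 9.62 in mutants, against 9.76, 10.32 and 10.46 in controls. That difference of −0.61 did not pass (limma adjusted p = 0.119), although the groups did not overlap. It passed in 5 alternatives, namely with same-numbered mice as blocks (adjusted p = 0.0276), array weights (0.0153), the muscle score (0.0493) or the adipocyte score (0.0473), and without control 1 (0.0226). Epb41l3, the relative of Epb41l2 found at axonal paranodes and internodes, stood at 0.58 and did not pass either (adjusted p = 0.0936), but passed with the block (0.0381), array weights (0.00999) or the adipocyte score (0.0473) and without mutant 2 (0.0341).

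Among the partners that rose was Farp1, which binds Cadm1 at synapses. It measured 9.97, 9.79 and 10.30 in mutants, against 9.20, 9.09 and 9.10 in controls (log2 fold change 0.89, SE 0.14, limma adjusted p = 0.00929). The syntenin gene Sdcbp rose by 0.56 (adjusted p = 0.0297) and the scaffold kinase Cask by 0.49 (adjusted p = 0.0281), both proteins with PDZ domains that bind CADM tails. Omitting mutant 1, mutant 3, control 2 or control 3 ended the call of Sdcbp, with adjusted p of 0.13, 0.131, 0.0931 and 0.0809 in that order, and so did omitting the muscle-rich pair (0.0708). For Cask the call ended at 0.124, 0.126, 0.0663 and 0.0874 on omitting mutant 1, mutant 3, control 1 or control 2. It also ended with arrays centred on their medians (0.0583), when mutant 2 and control 2 were both left out (0.0702) and with sex as a covariate (0.0726). The log2 fold changes stayed between 0.50 and 0.65 for Sdcbp and between 0.43 and 0.55 for Cask in all 19 alternatives. The count of 4 partners that passed became 1 without mutant 1, 2 without mutant 3 and 2 without control 2.

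**Figure D4:**
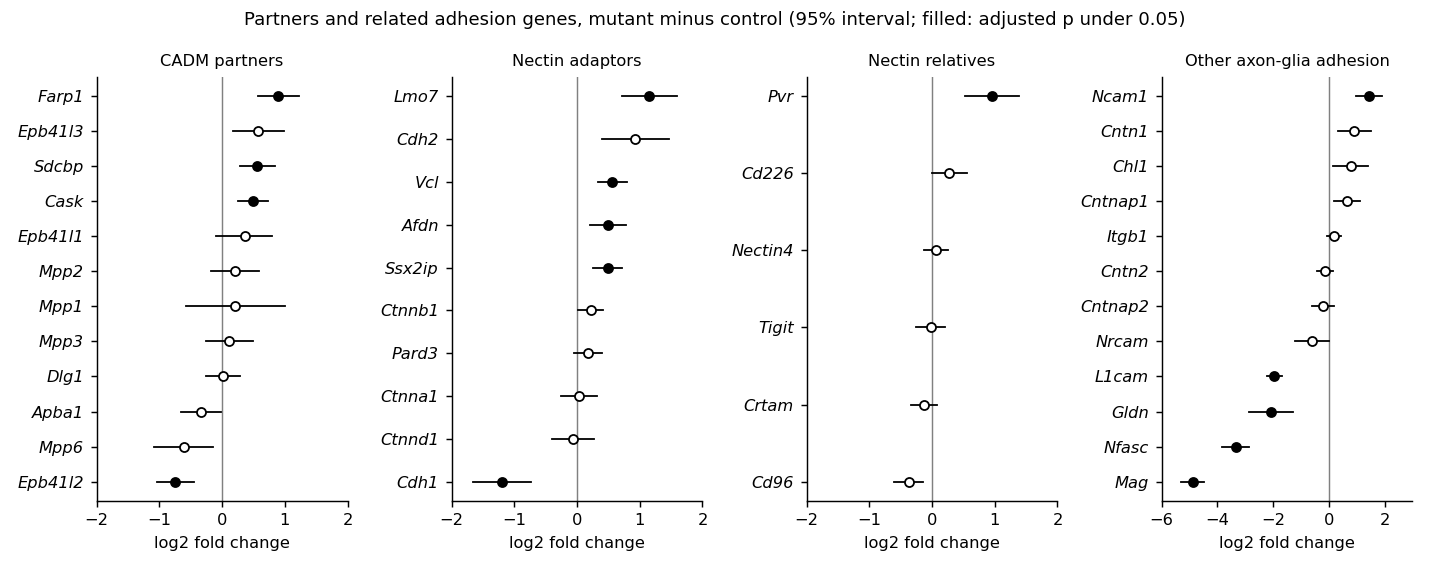
Log2 fold change (horizontal axis, mutant minus control) with 95% confidence intervals for measured genes of 4 lists. From left to right they are CADM partners, nectin and adherens junction adaptors, and other nectin relatives with lymphocyte receptors of the family. The last list holds other adhesion molecules of axon and Schwann cell contact. Filled points passed at an adjusted p under 0.05; the last panel has a wider axis, on which Mag lies at −4.89.

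Of the adaptors of nectins and of adherens junctions, more passed as higher than as lower, but not in every fit. Of 10 measured genes 4 rose, 1 fell and 5 did not pass, beside 5.74% of all genes higher and 3.89% lower. All genes thus also passed more often as higher than as lower. The median of the list was 0.36. Lmo7, which links afadin to the actin network, rose most. It measured 9.78, 10.10 and 9.88 in mutants, against 8.39, 9.07 and 8.86 in controls (log2 fold change 1.15, SE 0.18, limma adjusted p = 0.0105). Vcl, the actin linker vinculin, rose by 0.56 (adjusted p = 0.0139) and Ssx2ip, which binds afadin, by 0.49 (adjusted p = 0.0227). Afdn, the afadin gene, measured 9.99, 9.99 and 9.92 in mutants, against 9.66, 9.51 and 9.24 in controls. The groups did not overlap, and the rise of 0.50 passed narrowly (SE 0.12, limma adjusted p = 0.0474).

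Several of these calls ended when a mouse was left out, whichever of several mice it was, while the fold changes stayed close. Over the fits without 1 mouse the log2 fold change was 0.38 to 0.59 for Afdn, 0.41 to 0.55 for Ssx2ip and 0.49 to 0.64 for Vcl. The count of all genes that passed was 896 to 2021 in these fits, in place of 1948. Afdn did not pass in 10 of 19 alternatives, with adjusted p of 0.176 without mutant 1, 0.101 without mutant 2, 0.144 without mutant 3, 0.106 without control 2 and 0.0706 without control 3. The adjusted p of Ssx2ip became 0.1, 0.0526, 0.101 and 0.0565 on omitting mutant 1, mutant 2, mutant 3 or control 2, 0.0962 without both mutant 2 and control 2, and 0.0629 with sex as a covariate. That of Vcl became 0.069 on omitting mutant 1 and 0.0722 on omitting mutant 3. In place of 4 higher and 1 lower adaptor, 1 higher and 1 lower passed without mutant 1 and likewise without mutant 3, so that the excess of higher calls was gone in both fits. Without control 2 there were 2 higher and 1 lower. The median of the list stayed between 0.34 and 0.37 in these 3 fits.

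The adaptor list holds 2 classical cadherins, of which 1 fell. Cdh1, the epithelial cadherin that Schwann cells use in the uncompacted parts of the myelin sheath, was that gene. It measured 10.11, 9.65 and 10.04 in mutants, against 10.86, 11.05 and 11.50 in controls (log2 fold change −1.20, SE 0.19, limma adjusted p = 0.0111). Without the muscle-rich pair its adjusted p was 0.0606. Cdh2, the cadherin of immature Schwann cells, measured 11.66, 11.11 and 11.57 in mutants, against 10.31, 10.28 and 10.98 in controls. These groups did not overlap, but the difference of 0.93 missed the threshold (SE 0.23, limma adjusted p = 0.0502). Cdh2 passed in 9 of 19 alternatives. Among these were the replicate block (limma adjusted p = 0.0168), both filters on low genes (0.0427 and 0.0361) and quantile normalization of the deposited values (0.0386). Others were a trended robust prior (0.0437), array weights (0.00482) and the adipocyte score (0.0165). Cdh2 also passed without mutant 2 (0.0397) and without control 3 (0.0165). None of the 3 catenins of the list, which join cadherins to actin, passed the test.

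Relatives of the nectins and lymphocyte receptors of the family were mostly dim. Of 6 measured genes 1 rose and 5 did not pass, with a median of 0.02, beside 5.74% of all genes that passed as higher. The gene that rose was Pvr, the nectin-like poliovirus receptor homologue, which partners Nectin3 in moving cells. It measured 10.90, 10.24 and 10.70 in mutants, against 9.78, 9.47 and 9.75 in controls (log2 fold change 0.95, SE 0.18, limma adjusted p = 0.0206). All mutants lay above all controls. Omitting mutant 1, mutant 3 or control 2 gave Pvr an adjusted p of 0.0732, 0.0938 and 0.0661, so that none of the list passed in these fits, and 2 passed without mutant 2. Its call also ended with sex as a covariate (adjusted p = 0.0511). Nectin4, a nectin of epithelia and outside the chosen genes, averaged 6.96 ± 0.07 in mutants and 6.89 ± 0.04 in controls (SD, n = 3 each), with a log2 fold change of 0.07 (limma adjusted p = 0.699). For comparison, 6 Y-linked genes gave values of 4.19 to 5.56 in the 3 female mice, which lack these genes. Of the 4 lymphocyte receptors measured, all with means under 7.5 in both groups, none passed.

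Other adhesion molecules of the contact between axon and Schwann cell included larger changes than those of Cadm3 and Cadm4. Of 12 measured genes 4 fell, 1 rose and 7 did not pass, beside 3.89% of all genes lower and 5.74% higher. The median was −0.18. Mag, which like Cadm4 lies on the Schwann cell membrane that faces the axon, measured 7.25, 6.95 and 7.26 in mutants, against 11.84, 11.90 and 12.39 in controls. This was the largest difference of the list, at −4.89 (SE 0.17, limma adjusted p = 6.56e-05). The neurofascin gene Nfasc (log2 fold change −3.34), the nodal protein gene Gldn (−2.07) and L1cam (−1.96) fell as well. Ncam1 was the 1 gene that rose, by 1.44 (SE 0.19, limma adjusted p = 0.00543). Both Ncam1 and L1cam are among the markers of immature and nonmyelinating Schwann cells used here, and they changed in opposite directions. The axonal paranodal genes Cntn1 and Cntnap1 stood at 0.91 and 0.66 (adjusted p = 0.0726 and 0.0921), with no overlap between the groups. With the replicate block, Cntn1 (adjusted p = 0.0113), Cntnap1 (0.0419) and Chl1, a relative of L1cam, at 0.78 (0.0493) passed as well, so that 8 genes of the list passed. Array weights and the adipocyte score also took these 3 genes past the test. Without mutant 2, Cntn1 (adjusted p = 0.0425) and Chl1 (0.0472) passed, and without control 1, Cntnap1 did (0.0312).

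**Figure D5:**
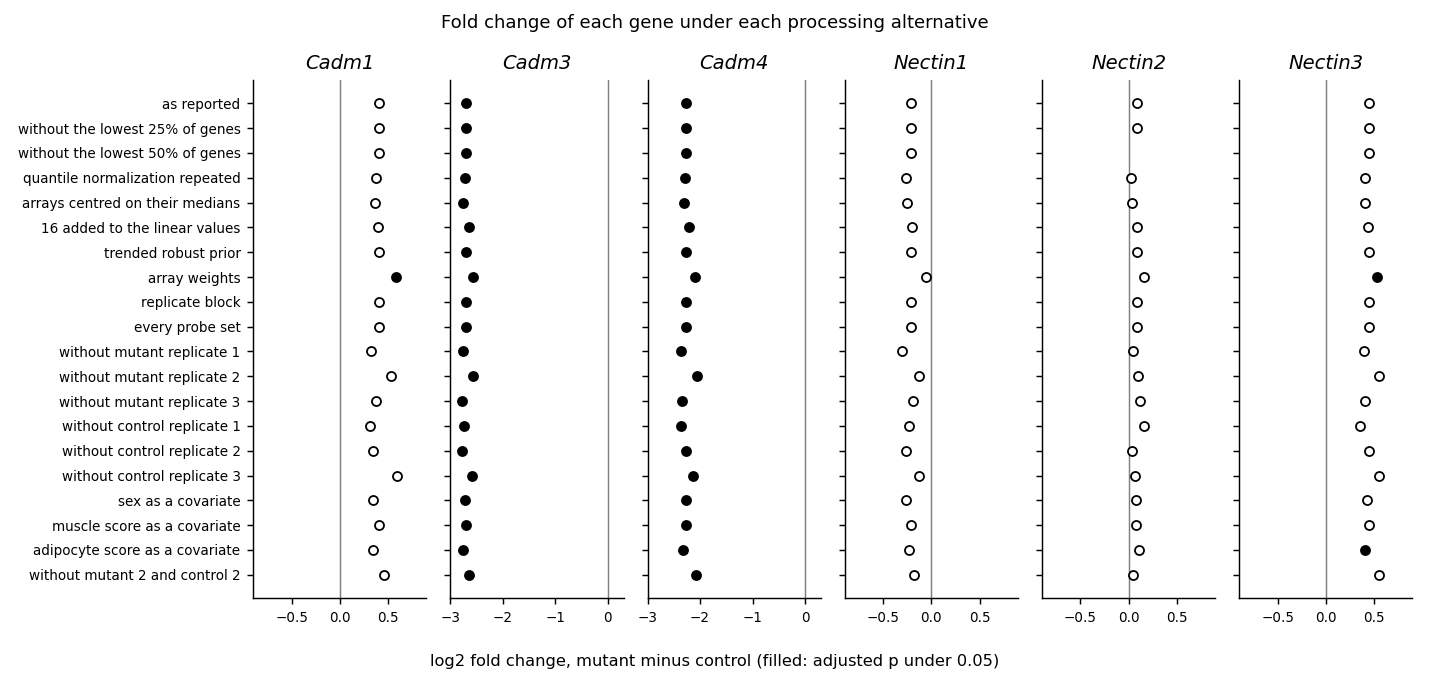
Log2 fold change (horizontal axis, mutant minus control) of the 6 genes as reported and under 19 processing alternatives (rows); filled points passed at an adjusted p under 0.05. Cadm3 and Cadm4 pass in every row, at −2.78 to −2.56 and −2.37 to −2.05, and their panels have a different axis range from the others.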

How the data were processed

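Per the labels' protocols, nerve RNA was isolated with Trizol, prepared with an Ambion kit, biotin-labelled and run on 1-colour Affymetrix arrays. The authors deposited 1 table of log2 values for 21225 probe sets, 1 value per array. Values spanned 3.55 to 14.52, from which the log base was taken, and array medians spanned 8.00 to 8.08. Limma is listed in the submitters' processing notes, and the background correction and normalization are not stated there. Platform annotation, updated through Entrez numbers to RefSeq (GRCm38.p6), named 20239 probe sets, and 986 are unnamed here. The number of arrays limits the precision, and without detection calls low values may be background, which compresses fold changes.

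Genes were tested in R 4.3.3 by limma 3.58.1 (lmFit, eBayes, two-sided, no block, 6.893 degrees of freedom), with Benjamini-Hochberg adjustment over the 20239 named genes. Intervals are moderated 95% intervals. The labels call samples of a group biological replicates, and each was counted as 1 mouse. Same-numbered mutants and controls had deviations from group means that correlated at 0.360, 0.574 and 0.295, so a replicate block was tried. Mutant 1 with control 3 reached 0.303, and the other unlike-numbered pairs ran from −0.607 to 0.001. The labels do not state a pairing, so the block is only an alternative. Other alternatives are named in the closing section. On simulated data with 20239 genes and independent normal noise, the fit recovered 24.8% of shifts of 0.5 (log2), 75.6% of shifts of 1 and 96.0% of shifts of 2. Of the calls 5.99% were unchanged genes. Only upward shifts were simulated, in fewer genes than passed in the real data, so these shares may differ for the real comparison.

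Members, lists, naming rule and alternatives were all chosen with earlier results of these data known. Named were all measured members, Zeb2, list members past the test and the 3 genes most like each member that passed. Pals2, Epb41l3, Cdh2, Cntn1, Cntnap1, Chl1 and Nectin4 were named after their values were seen. Of the 43 genes in 4 lists of related genes, 40 were measured.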

Additional observations from a re-analysis of the deposited data

How the results depend on the processing

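Each value was recomputed under 19 alternatives. These included filters on the lowest 25% or 50% of genes, quantile normalization of the deposited values, median centring and 16 added to linear values. Further ones were a trended robust prior, array weights, a replicate block, every probe set, and sex, muscle or adipocyte score as a covariate. Each sample was also left out, as were mutant 2 and control 2 together. Cadm3 and Cadm4 passed as lower in all 19, with adjusted p of at most 0.00329 and 0.00749. Without single samples Cadm3 ran from −2.78 to −2.56, Cadm4 from −2.37 to −2.05, Cadm1 from 0.31 to 0.59, Nectin1 from −0.31 to −0.13, Nectin2 from 0.04 to 0.16 and Nectin3 from 0.36 to 0.55. Nectin1 and Nectin2 passed in no alternative, and Nectin2 gave no value without the lowest 50% of genes. No gene reversed.

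Array weights took Cadm1 (0.58) and Nectin3 (0.53) past the test, so that 4 of 6 genes passed, and the adipocyte score took Nectin3 (0.41). The array weights leaned on mutant 1, at 4.81, against 0.46 to 1.52 for the other arrays. With array weights 3655 genes passed in all, 8 of the axon and Schwann cell contact list and 3 nectin relatives. The contact list gave 8 with the replicate block and 9 with the adipocyte score. With sex as a covariate 3 adaptors and 0 nectin relatives passed by limma. Without mutant 2 and control 2, 2 CADM partners and 2 adaptors passed. Without single samples the counts ran from 896 to 2021 for all genes, with 896 without mutant 1 and 910 without mutant 3, from 1 to 5 for CADM partners, 2 to 5 for adaptors, 0 to 2 for nectin relatives and 5 to 7 for the contact list. The replicate block changed no call of the 6 genes. Each fit without a sample has fewer degrees of freedom than the full fit. Without mutant 2 the count was 2021 genes, beside 1948 in the full fit, and why the counts differ was not tested.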
